A study of Drosophila melanogaster with 6 samples.

Results

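Glutamine and lysine are each encoded by a pair of codons that differ only in the last base, CAG and CAA for glutamine and AAG and AAA for lysine. Each pair is read by a pair of anticodons that differ only in the first base. The tRNAs whose anticodon begins with C (Gln-CUG and Lys-CUU) pair with the codon ending in G, while those beginning with U (Gln-UUG and Lys-UUU) pair with the codon ending in A and can also wobble to the codon ending in G. In yeast, the wobble U of these tRNAs carries a modification made with the Elongator complex. An anticodon can be carried by several isodecoders, each with its own sequence outside the anticodon. Transcription of their genes by RNA polymerase III is directed by promoter boxes inside the gene. The nuclear glutamine and lysine tRNAs were taken by amino acid from the authors' table, whatever their anticodon, without use of any measured value. They comprise 9 of the 84 nuclear isodecoders, 6 for glutamine and 3 for lysine, among 106 tRNAs that also include 22 mitochondrial ones.

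Transfer RNA was quantified by hydro-tRNAseq, in which tRNAs are partially hydrolyzed before sequencing, in whole *Drosophila melanogaster* brains at the L3 larval stage. The 3 neuroblast-biased samples came from insc-Gal4>UAS-aPKC_caax larvae, in which insc-Gal4 drives the aPKC transgene in neuroblasts and produces ectopic neuroblasts. The 3 neuron-biased samples came from wild-type larvae of the genotype Oregon R in the labels (Oregon-R-P2 in the methods of the study). Per the labels, both were cultured at 25 °C, and no age in hours is given there. Both sources are dissected brains and not sorted cells, so neuroblast and neuron below name the predominant cell type, and the difference in genotype cannot be told apart from that in cell type. The table holds tRNAs only, so cell identity could not be checked against marker genes. In such bulk samples, fewer cells of a type and less tRNA per cell cannot be told apart. For each tRNA the table gives 1 value per group, the authors' mean of TMM-normalized read counts, written here as mean TMM. The means carry no spread between replicates, and the number of reads is unknown here. The authors' own test columns were not used, so all comparisons below are sizes without a test, and they do not say whether a difference is larger than the replicate error.

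Across the 9 isodecoders, mean TMM differed little between neuroblasts and neurons, with a single exception of low abundance. Only Gln-UUG-2-1 had a log2 ratio (neuroblast over neuron) of at least 0.5 in size, 1 of 9, whereas 41.7% of all nuclear isodecoders were past this size. The size of 0.5 is the fold change threshold used in the study for isodecoders, where it was combined with a q-value cutoff. That cutoff was not applied here, so the isodecoders past 0.5 are not the study's calls of differential expression. The median size of the log2 ratio was 0.20 for glutamine and lysine and 0.43 for all nuclear isodecoders. The median log2 ratio itself was −0.11 for the 9, which were lower in 7 cases and higher in 2, and −0.27 for all 84, which were lower in 57 and higher in 27. These directions depend on the scaling. After centering on the nuclear median, 6 of the 9 were higher and 3 were lower in neuroblasts, and equal summed TMM in both groups gave the same split. In that centered view, 34.5% of nuclear isodecoders and again 1 of 9 glutamine and lysine isodecoders were past 0.5.

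**Figure D1:**
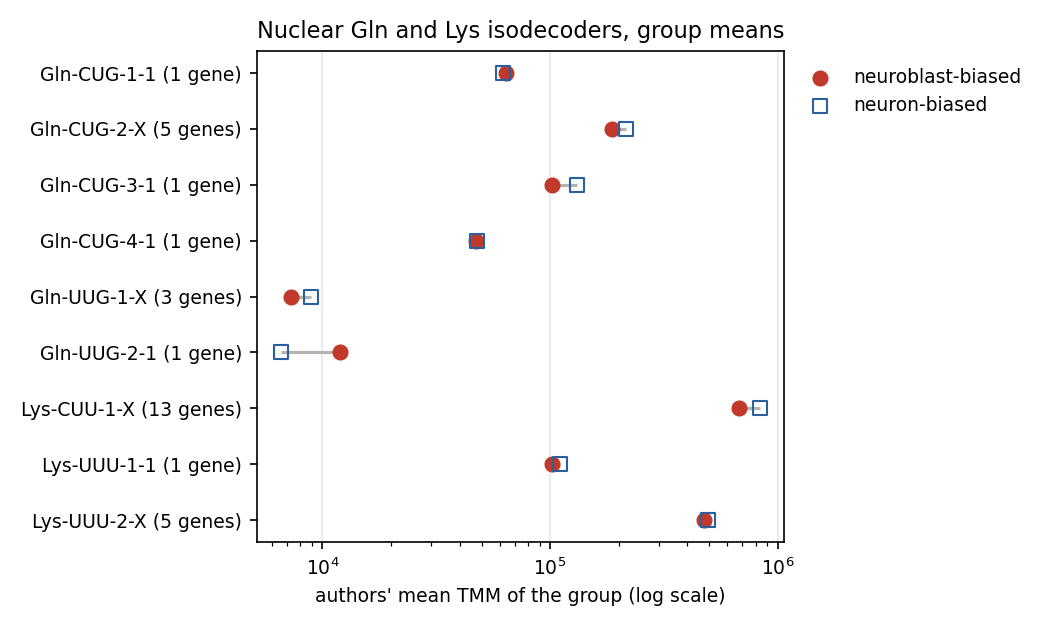
Mean TMM (authors' group means, log scale) of the 9 nuclear glutamine and lysine isodecoders, with the number of RefSeq genes of each in parentheses. Filled circles are neuroblast-biased brains and open squares are neuron-biased brains. The values run from 6550 to 838799, and the widest gap between the groups is that of Gln-UUG-2-1, at 11914 in neuroblasts and 6550 in neurons.

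The C-first glutamine tRNAs, which read CAG, were present as 4 isodecoders. The most abundant was Gln-CUG-2-X, with a mean TMM of 187373 in neuroblasts and 214959 in neurons, a log2 ratio of −0.20. The ending X marks an isodecoder made by several genes, here 5. The next in both groups was Gln-CUG-3-1, from 1 gene, at 102109 in neuroblasts and 131848 in neurons, a log2 ratio of −0.37. This was the lowest ratio among the 9 isodecoders. The 2 least abundant were nearly level between the groups. Gln-CUG-1-1 had 63726 in neuroblasts and 62206 in neurons (log2 ratio 0.035), and Gln-CUG-4-1 had 47127 and 47941 in neuroblasts and neurons (log2 ratio −0.025). The order of the 4 was therefore the same in both groups, and all 4 log2 ratios were below 0.5 in size.

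Summed over its isodecoders, Gln-CUG reached 400335 in neuroblasts and 456954 in neurons, a log2 ratio of −0.19 that becomes 0.076 with the nuclear median set to 0. Gln-CUG-2-X made up 46.8% of the sum in neuroblasts and 47.0% in neurons, and Gln-CUG-3-1 made up 25.5% and 28.9%. The composition of the CAG-reading pool by isodecoder thus shifted by a few percentage points at most.

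The U-first glutamine tRNAs, which read CAA, were rare in both groups. Gln-UUG-1-X, from 3 genes, had a mean TMM of 7308 in neuroblasts and 8883 in neurons, a log2 ratio of −0.28. Gln-UUG-2-1, from 1 gene, had 11914 in neuroblasts and 6550 in neurons, a log2 ratio of 0.86 and a 1.82-fold difference. The 2 isodecoders thus moved in opposite directions on the deposited values, and their order was reversed: Gln-UUG-2-1 was 1.63 times Gln-UUG-1-X in neuroblasts, whereas Gln-UUG-1-X was 1.36 times Gln-UUG-2-1 in neurons. With the nuclear median set to 0, Gln-UUG-1-X was close to level, at −0.014, and Gln-UUG-2-1 was at 1.13.

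Among the 84 nuclear isodecoders, the log2 ratio of Gln-UUG-2-1 ranked 3rd from the top. Its abundance ranked 64th in neuroblasts and 74th in neurons. The median size of the ratio was larger among isodecoders of such low abundance than among the others. Of the 21 nuclear isodecoders with a mean TMM under 10000 over both groups, which include both Gln-UUG isodecoders, 11 were past 0.5 in size, with a median size of 0.51, and their log2 ratios ranged from −1.29 to 1.97. The part of low abundance in the ratio of Gln-UUG-2-1 was not tested. Among the 63 more abundant isodecoders, with a median size of 0.37, 24 were past 0.5, but none of the 7 glutamine and lysine isodecoders in that class was. Those 7 had log2 ratios from −0.37 to 0.035, with a median size of 0.11, against 0.44 for the other 56.

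**Figure D2:**
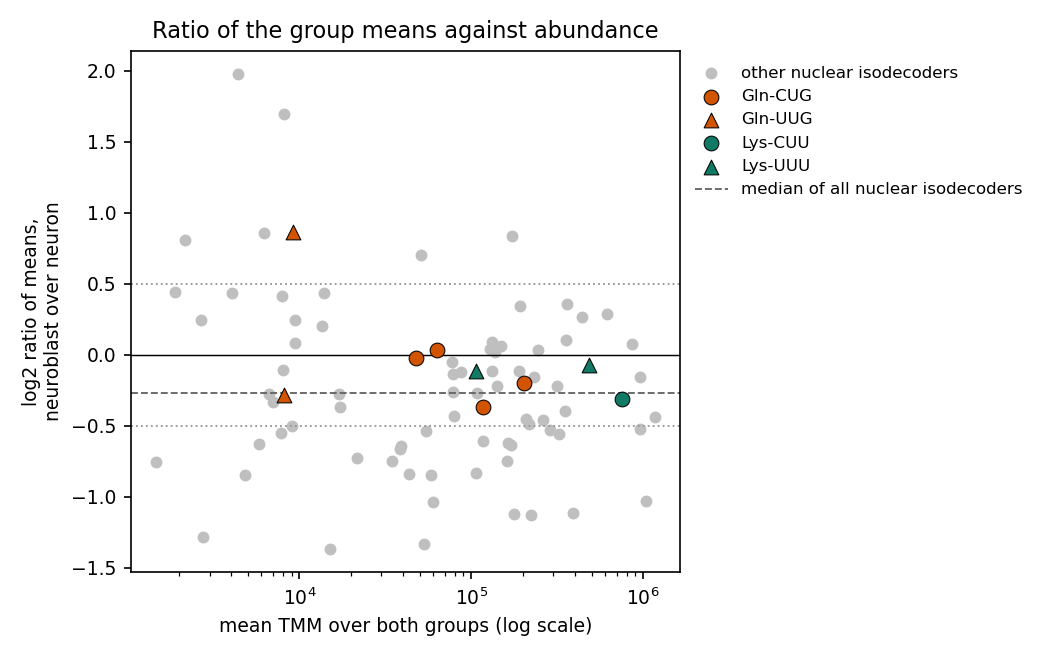
Log2 ratio of the group means (neuroblast over neuron) against the mean TMM over both groups (log scale) for the 84 nuclear isodecoders. Orange marks are glutamine and green marks are lysine tRNAs, circles for C-first and triangles for U-first anticodons; the dashed line is the nuclear median of −0.27 and the dotted lines are at 0.5 and −0.5. Gln-UUG-2-1, at 0.86, is the sole colored mark outside the dotted lines.

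Together, the Gln-UUG isodecoders summed to 19222 in neuroblasts and 15432 in neurons, a log2 ratio of 0.32 (0.58 with the nuclear median set to 0). The sum was 3790 higher in neuroblasts, made up of 5365 more from Gln-UUG-2-1 and a change of −1575 from Gln-UUG-1-X. Gln-UUG had the lowest summed TMM of all 45 anticodon sets in both groups, 0.143% of the nuclear total in neuroblasts and 0.0933% in neurons. The Gln-CUG set ranked 13th in neuroblasts and 12th in neurons.

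Lysine tRNAs were far more abundant. Lys-CUU-1-X, the only C-first lysine isodecoder and the reader of AAG, had a mean TMM of 674233 in neuroblasts and 838799 in neurons, a log2 ratio of −0.32. It ranked 7th of the 84 nuclear isodecoders in neuroblasts and 5th in neurons. Of the 2 U-first isodecoders, which read AAA, Lys-UUU-2-X had 472738 in neuroblasts and 496374 in neurons, a log2 ratio of −0.070, and ranked 9th in both groups. Lys-UUU-1-1 had 102440 in neuroblasts and 110879 in neurons, a log2 ratio of −0.11. All 3 were lower in neuroblasts on the deposited values. With the nuclear median set to 0, Lys-CUU-1-X remained slightly lower, at −0.048, while Lys-UUU-2-X and Lys-UUU-1-1 were higher, at 0.20 and 0.15.

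The summed Lys-UUU set was at 575178 in neuroblasts and 607252 in neurons, a log2 ratio of −0.078 (0.19 with the nuclear median set to 0). Lys-UUU-2-X supplied 82.2% of it in neuroblasts and 81.7% in neurons. In contrast to Gln-UUG, the isodecoder composition of Lys-UUU was therefore nearly the same in both groups.

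The C-first to U-first balance is a ratio within a group and is not moved by the scaling of that group. It compares read counts of different tRNAs, and whether these were recovered equally in sequencing was not tested. For glutamine, the summed C-first tRNA was 20.8 times the U-first tRNA in neuroblasts and 29.6 times in neurons, which are log2 balances of 4.38 and 4.89. For lysine it was 1.17 times in neuroblasts and 1.38 times in neurons, log2 balances of 0.23 and 0.47. These balances are of sums. Averaging over the isodecoders of an anticodon, the definition used in the study, gives log2 balances of 3.38 in neuroblasts and 3.89 in neurons for glutamine and of 1.23 and 1.47 for lysine, with the same changes between the groups. Both balances were less C-biased in neuroblasts, by −0.51 for glutamine and by −0.24 for lysine on the log2 scale (neuroblast minus neuron). As shares, Gln-UUG made up 4.58% of the nuclear glutamine tRNA in neuroblasts and 3.27% in neurons, and Lys-UUU made up 46.0% of the nuclear lysine tRNA in neuroblasts and 42.0% in neurons. The share of the U-first set was thus higher by 1.31 percentage points for glutamine and by 4.04 for lysine. The C-first set held the larger share for both amino acids in both groups.

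The balances were next compared isodecoder by isodecoder. Each of the 4 Gln-CUG isodecoders was set against each of the 2 Gln-UUG isodecoders, giving 8 pairs. All 4 pairs with Gln-UUG-2-1 were less C-biased in neuroblasts, with changes from −1.23 (Gln-CUG-3-1) to −0.83 (Gln-CUG-1-1). Of the 4 pairs with Gln-UUG-1-X, 3 were more C-biased in neuroblasts and 1 was less so, with changes from −0.087 (Gln-CUG-3-1) to 0.32 (Gln-CUG-1-1). Pairs that share a U-first isodecoder are not independent of each other. The change for glutamine as a whole rested on Gln-UUG-2-1: without it, the change of the summed balance was 0.091, opposite in sign, and without Gln-UUG-1-X it was −1.05. Leaving out any of the 4 Gln-CUG isodecoders gave changes between −0.55 and −0.44.

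For lysine, both isodecoder pairs had the same direction. The change was −0.24 for Lys-CUU-1-X against Lys-UUU-2-X, which were at a ratio of 1.43 in neuroblasts and 1.69 in neurons. It was −0.20 for Lys-CUU-1-X against Lys-UUU-1-1, at a ratio of 6.58 in neuroblasts and 7.57 in neurons. The lysine change therefore did not rest on 1 U-first isodecoder, although both pairs share the single C-first isodecoder.

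In the nuclear table, 11 pairs of anticodons share the amino acid and the last bases of the anticodon and differ by C or U at the first base. The change of the balance was below 0 for 7 of the 11 and above 0 for 4, with a median of −0.24 and a range from −1.43 (Ser-CGA/UGA) to 0.67 (Ala-CGC/UGC). Lysine was itself the median pair, the 6th of 11 from the lowest, and glutamine was the 3rd. In size, the changes ranked 4th for glutamine and 8th for lysine. A total of 5 pairs, glutamine and lysine among them, belong to codon boxes that no other anticodon of the same amino acid reads. The other 3 are Leu-CAA/UAA, with a change of −0.87, Glu-CUC/UUC, with −0.33, and Arg-CCU/UCU, with 0.17. The balance of glutamine was the most C-biased of the 11 in both groups. The next highest was that of Arg-CCU/UCU, at 1.38 in neuroblasts and 1.21 in neurons, and the median of the 11 was 0.39 in neuroblasts and 0.47 in neurons. The lysine balance was near this median, 7th in neuroblasts and 6th in neurons.

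**Figure D3:**
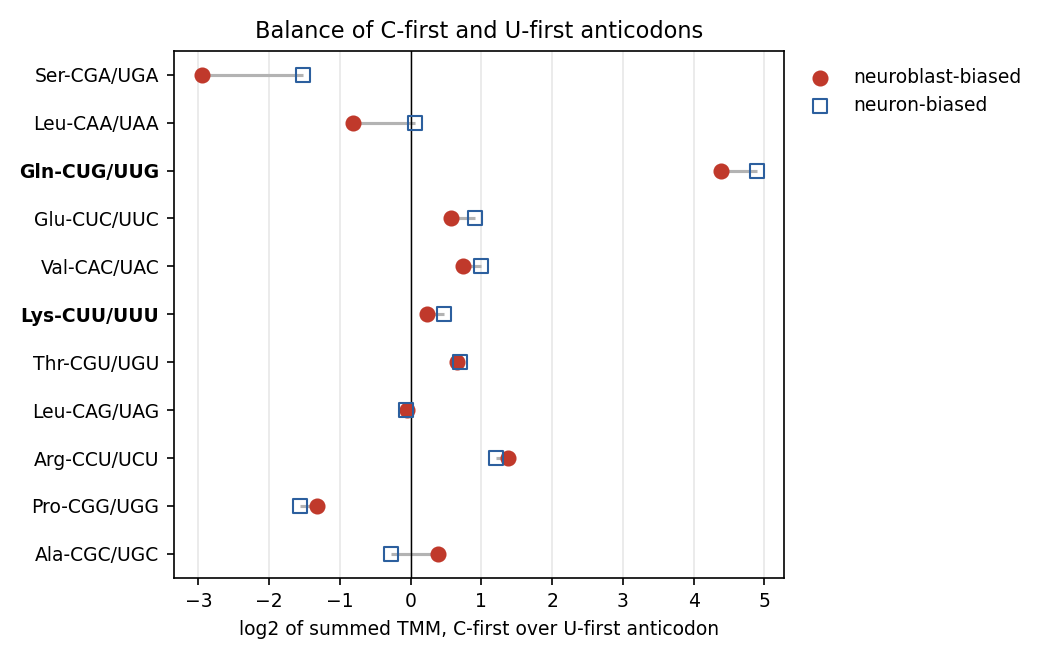
Log2 of the summed mean TMM of the C-first over the U-first anticodon for the 11 nuclear anticodon pairs, with filled circles for neuroblast-biased and open squares for neuron-biased brains, ordered by the change between the groups (lowest at the top). Glutamine is at 4.38 in neuroblasts and 4.89 in neurons, right of all other pairs, and lysine is at 0.23 and 0.47.

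The supply of each codon was calculated with the wobble term of the tRNA adaptation index (tAI), in which a U-first tRNA adds a reduced share to the codon ending in G. The penalty of 0.68 is that of the original index. The isodecoders of an anticodon were summed for this, and the supply with averaged isodecoders was not calculated. For glutamine, the supply of CAA was 0.0473 of that of CAG in neuroblasts and 0.0334 in neurons. For lysine, the supply of AAA was 0.670 of that of AAG in neuroblasts and 0.588 in neurons. The CAG and AAG codons thus had the larger calculated supply in both groups, again taking all tRNAs as equally recovered. The difference between the groups was 0.0139 for glutamine and 0.0824 for lysine. Wobble by the U-first tRNA contributed 1.51% of the CAG supply in neuroblasts and 1.07% in neurons, against 21.4% and 18.8% of the AAG supply in neuroblasts and neurons. Without the wobble term, the AAA ratio was 0.853 in neuroblasts and 0.724 in neurons.

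The 9 isodecoders are encoded by 31 of the 290 nuclear tRNA genes in the RefSeq annotation of Release 6, in which all 84 nuclear isodecoders were found by name. Genes of 1 isodecoder share their mature sequence and cannot be told apart in the reads. Gln-CUG has 8 genes and Gln-UUG has 4, while Lys-CUU has 13 and Lys-UUU has 6, so the C-first set has more genes for both amino acids. Measured tRNA departed from this ratio in opposite directions. Per gene, Gln-CUG had 10.4 times the TMM of Gln-UUG in neuroblasts and 14.8 times in neurons. Lys-CUU had 0.541 times the TMM of Lys-UUU per gene in neuroblasts and 0.638 times in neurons, so lysine was C-biased in its sum but not per gene.

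Gln-UUG averaged 4806 TMM per gene in neuroblasts and 3858 in neurons, which ranked 44th and 45th of the 45 anticodon sets. Lys-UUU averaged 95863 per gene in neuroblasts and 101209 in neurons, 4th and 7th of the 45. Gln-CUG and Lys-CUU were alike per gene, with 50042 and 51864 in neuroblasts and 57119 and 64523 in neurons. Of the 46 nuclear isodecoders with more than 1 gene, 3 had a lower mean TMM than Gln-UUG-1-X in neuroblasts and 4 did in neurons. Gln-CUG-3-1, with 102109 in neuroblasts and 131848 in neurons from 1 gene, had more TMM per gene than Gln-CUG-2-X, which had 37475 and 42992. Reads matching several isodecoders were divided among the isodecoders and not by gene number, and the effect on per-gene values was not tested.

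**Figure D4:**
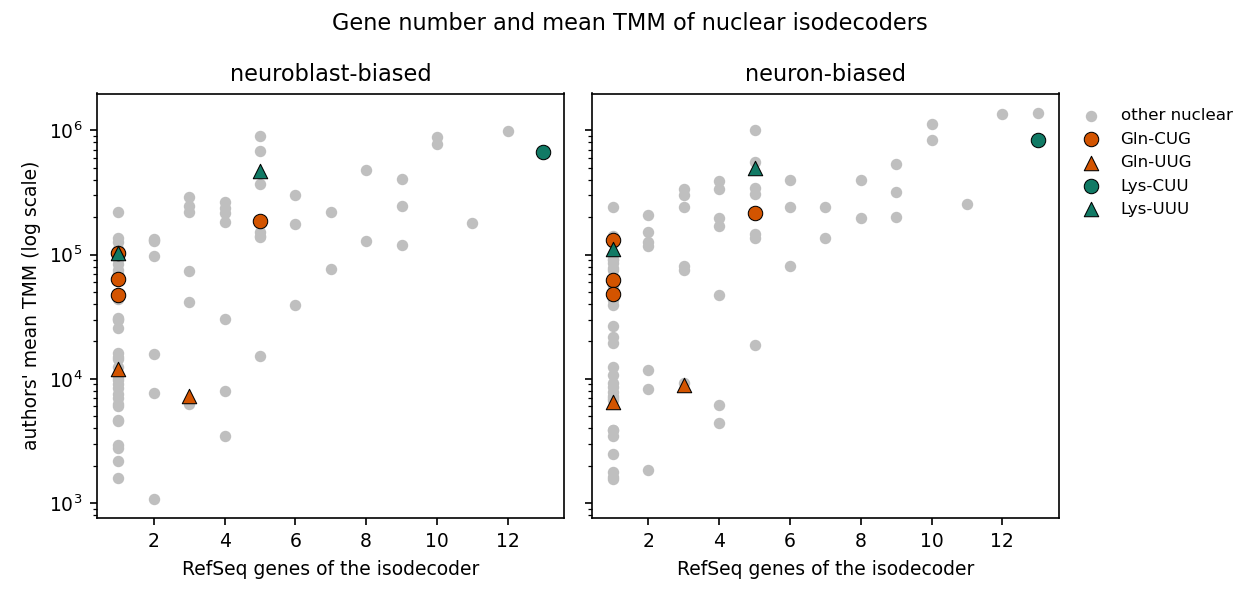
Mean TMM (log scale) against the number of RefSeq genes for the 84 nuclear isodecoders, in neuroblast-biased brains (left) and neuron-biased brains (right). Both Gln-UUG isodecoders (orange triangles, 1 and 3 genes) are below every other glutamine and lysine mark in both panels, while Lys-UUU-2-X (5 genes) is at 472738 in neuroblasts and 496374 in neurons.

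All coordinates are from the Release 6 assembly, whose annotation used here gives gene spans without exons or strand. Gln-UUG-2-1 lies on chromosome X from 3427452 to 3427523, within the spans of the protein-coding gene *CG12535* and the non-coding RNA gene *lncRNA:CR44999*. The Gln-UUG-1-X genes lie on 3L from 11801471 to 11801542 and, as a pair, on 3R from 26947263 to 26947334 and from 26947512 to 26947583, all outside other annotated genes. The 2 Gln-UUG isodecoders, which differed in direction on the deposited values, are therefore encoded on different chromosomes. A link between these positions and the ratios was not tested.

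Of the 5 Gln-CUG-2-X genes, 4 form a cluster on 2L from 2009155 to 2013250 that also holds the gene of Gln-CUG-3-1 (2010869 to 2010940), 151 bp from its nearest neighbor. That stretch overlaps *CG4238* for 3 of the 5 cluster genes, Gln-CUG-3-1 included. The remaining Gln-CUG-2-X gene is on X from 3819699 to 3819770, within *ec*. Gln-CUG-3-1 and Gln-CUG-2-X, which share the cluster, had the 2 lowest log2 ratios among the Gln-CUG isodecoders, −0.37 and −0.20. Gln-CUG-4-1, farther along 2L from 14010565 to 14010636, and Gln-CUG-1-1, on 2R from 16207635 to 16207706 within *mrj*, were near 0. Whether position has a part in this was not tested.

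The 13 Lys-CUU-1-X genes are spread over 2R (11 genes) and 3L (2 genes). On 2R, 4 of them lie within *EcR*, which encodes the ecdysone receptor, and 4 within the overlapping spans of *mim* and *CheB42c*. The 3L pair (3096604 to 3096963) lies within *Cht7*, a chitinase gene. By contrast, all 5 Lys-UUU-2-X genes are on 3R outside other annotated genes, 4 of them between 6819894 and 6823035. Lys-UUU-1-1 is on 2L from 8290727 to 8290799, within the tyrosine kinase gene *Btk*. Over both amino acids, 17 of the 31 genes lie within the span of another annotated gene and 14 do not.

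As a share of all nuclear tRNA, glutamine tRNAs held 3.12% in neuroblasts and 2.86% in neurons, and lysine tRNAs held 9.29% and 8.74% in neuroblasts and neurons. Lysine ranked 2nd in neuroblasts and 4th in neurons among 22 groups (the amino acids, with initiator Met and selenocysteine apart), and glutamine ranked 15th and 14th. The summed TMM was 419557 in neuroblasts and 472387 in neurons for glutamine, a log2 ratio of −0.17, and the log2 ratio was −0.21 for lysine. Both turn slightly positive, to 0.096 and 0.056, with the nuclear median set to 0.

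The mitochondrial genome carries its own tRNA for each amino acid. Mitochondrial Gln-UUG had a mean TMM of 7322 in neuroblasts and 6305 in neurons, a log2 ratio of 0.22, and mitochondrial Lys-CUU had 57947 in neuroblasts and 41799 in neurons, a log2 ratio of 0.47. Both ratios were below the mitochondrial median of 0.79, as 18th and 14th of the 22 mitochondrial tRNAs. The nuclear and the mitochondrial Lys-CUU tRNA thus differed in direction, at −0.32 and 0.47 on the deposited values and at −0.048 and 0.74 with the nuclear median set to 0.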

How the data were processed

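Hydro-tRNAseq libraries were made from 3 neuroblast-biased and 3 neuron-biased brain samples. Per the methods of the study, adaptors were removed with cutadapt and reads were aligned by subread-align to a reference of mature gtRNAdb tRNAs, identical ones merged. After a mapping quality filter, featureCounts gave read counts, with a read of several matches divided among them. Near-identical isodecoders, and fragments without the anticodon, can therefore share reads across the values given here. NOISeqBio served for TMM normalization and batch correction. The deposited table gives the mean of this normalized signal for each group. It also holds the authors' fold change, test statistics and q-values, which were not used. The depth is unknown here, and no test was run, since 1 mean per group gives no spread.

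Log2 ratios, sums, shares and balances were calculated from the 2 group means for all 106 tRNAs with Python 3.11.15, numpy 2.4.6 and pandas 2.3.3, and plotted with matplotlib 3.10.9. No pseudocount or filter was used. Anticodon sets are sums over isodecoders. Anticodons are written with U where the table has T. All 9 glutamine and lysine isodecoders were named. Genes were located in RefSeq, Release 6, by name. Alternatives were 2 other scalings, a filter at a mean TMM of 10000, a pseudocount of 100, isodecoders combined differently or left out, a threshold of 1 and no wobble. The tRNAs, lists and alternatives were chosen with earlier results of these data known.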

Additional observations from a re-analysis of the deposited data

How the results depend on the processing

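No paired analysis was possible because the table holds group means, and for the same reason no replicate could be left out. With no spread between replicates, a value counted as changed when its second decimal changed. Scaling turned the direction of some single ratios. Centering on the nuclear median adds 0.27 to each log2 ratio, which gave 0.069 for Gln-CUG-2-X, 0.24 for Gln-CUG-4-1, 0.15 for Lys-UUU-1-1 and 0.20 for Lys-UUU-2-X in place of values below 0. Equal summed TMM gave 0.067, 0.24, 0.15 and 0.19 for the same 4, and no other isodecoder changed direction. Of the anticodon sets, centering gave 0.076 for Gln-CUG and 0.19 for Lys-UUU, both turned, as well as 0.58 for Gln-UUG and −0.048 for Lys-CUU. The mean of the isodecoders' log2 ratios was −0.14 for Gln-CUG, 0.29 for Gln-UUG and −0.092 for Lys-UUU.

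Averaging isodecoders in place of summing them gave log2 balances of 3.38 in neuroblasts and 3.89 in neurons for glutamine, and of 1.23 and 1.47 for lysine. With the most abundant isodecoder of each anticodon, they were 3.98 and 4.60 for glutamine and 0.51 and 0.76 for lysine. Per gene, they were 3.38 and 3.89 for glutamine and −0.89 and −0.65 for lysine, which turns the lysine balance, since Lys-CUU has 13 genes and Lys-UUU has 6. The change of the glutamine balance was −0.62 with the most abundant isodecoders, which are different U-first isodecoders in the 2 groups, and −0.50 with a pseudocount of 100 per isodecoder. It was −0.55, −0.50, −0.44 and −0.53 without Gln-CUG-1-1, Gln-CUG-2-X, Gln-CUG-3-1 and Gln-CUG-4-1 in turn, −1.05 without Gln-UUG-1-X and 0.091, turned, without Gln-UUG-2-1. That of lysine was −0.20 without Lys-UUU-2-X and −0.24 under every other alternative run.

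A minimum mean TMM of 10000 removed both Gln-UUG isodecoders, so it gave no glutamine balance. At a threshold of 1, 10 nuclear isodecoders were past the size, in place of 35. Without wobble, the supply of AAA relative to AAG was 0.853 in neuroblasts and 0.724 in neurons. The precision of each mean is limited by depth and by the 3 replicates per group. Depth and the spread between replicates cannot be read from the table.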
